A study of Mus musculus with 10 samples.

Results

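Luminal progenitor markers, 6 of the 49671 genes in the deposited count tables, were followed across 5 sorted cell populations of the mouse mammary gland. They were found by matching the gene identifiers to the symbols Kit, Aldh1a3, Cd14, Wfdc18, Trf and Lcn2 in the GENCODE M21 annotation of GRCm38, a rule that uses no measured value, and all 6 were among the 19757 genes with enough counts to be tested. Each population had 2 bulk RNA-seq libraries. Basal cells (BC) and luminal cells (LC) were labelled with no treatment, and the second library of each carried the label WT. The remaining populations carried luminal cell ablation as their treatment label and were sorted for Tomato, a red fluorescent reporter that tags a chosen cell and its progeny. They were Tomato basal cells (TBC), hybrid cells that were Tomato positive (THC, for Tomato hybrid cells) and, on the luminal side, Tomato luminal cells (TLC). What TBC, THC and TLC share, ablation and tagging, is thus absent from the labels of BC and LC, and the effects of ablation and tagging cannot be told apart. The labels give no mouse line, transgene, age, sorting markers or drug, and do not say whether libraries came from separate or pooled animals, so each p-value measures only the spread between these samples. Counts assigned to genes ran from 2757773 in THC replicate 1 to 13685674 in LC replicate 2.

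The mammary duct has an outer basal, myoepithelial layer and an inner luminal layer. Within the luminal layer, hormone-sensing cells carry estrogen and progesterone receptors, while luminal progenitors mostly lack them, form colonies in culture and are primed for the milk-secreting alveolar fate. The 6 genes are widely used to recognise luminal progenitors. Kit is the receptor tyrosine kinase for stem cell factor. Cd14 is a co-receptor for bacterial lipopolysaccharide. Aldh1a3 oxidises retinaldehyde to retinoic acid. Wfdc18 is a small secreted protein with a whey acidic protein domain. Trf is transferrin, which carries iron in blood and milk. Lcn2 is lipocalin 2, which binds bacterial siderophores and is strongly induced in inflammation.

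Promoter sequence was read for 3 of the 6 genes, Kit, Wfdc18 and Lcn2, the 3 with an entry used here, and is shown to set the windows of a gene highest in LC (Kit), one highest in TLC (Wfdc18) and one lowest in TLC (Lcn2) side by side. The 250 bases before the RefSeq gene start (GRCm38.p6) are given 5′ to 3′ on the gene's strand. They lie at chr5:75574737-75574986 on the plus strand for Kit and at chr11:83708754-83709003 on the plus strand for Wfdc18. For Lcn2 they lie at chr2:32387740-32387989 on the minus strand. The GENCODE starts differ from these RefSeq starts. By GENCODE, the Lcn2 window lies wholly inside the gene, whose minus-strand start is at 32388252. The Kit window runs past the GENCODE start of Kit at 75574916, and the Wfdc18 window ends before that of Wfdc18 at 83709015. Capitals mark matches, on either strand, to the core of ETS factors such as Elf5 and Ehf (AGGAAG), to the C/EBP pattern TTNNGCAA and to the STAT pattern TTCNNNGAA.
Kit: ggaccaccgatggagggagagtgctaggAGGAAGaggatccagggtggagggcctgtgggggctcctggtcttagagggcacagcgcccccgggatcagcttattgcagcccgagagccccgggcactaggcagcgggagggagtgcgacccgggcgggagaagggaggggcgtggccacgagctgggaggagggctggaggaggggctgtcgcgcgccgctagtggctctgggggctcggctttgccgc
Wfdc18: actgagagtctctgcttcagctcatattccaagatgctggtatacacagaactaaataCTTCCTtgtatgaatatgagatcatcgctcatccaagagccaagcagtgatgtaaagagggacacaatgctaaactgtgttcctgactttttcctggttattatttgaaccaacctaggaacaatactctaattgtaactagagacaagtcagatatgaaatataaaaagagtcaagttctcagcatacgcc
Lcn2: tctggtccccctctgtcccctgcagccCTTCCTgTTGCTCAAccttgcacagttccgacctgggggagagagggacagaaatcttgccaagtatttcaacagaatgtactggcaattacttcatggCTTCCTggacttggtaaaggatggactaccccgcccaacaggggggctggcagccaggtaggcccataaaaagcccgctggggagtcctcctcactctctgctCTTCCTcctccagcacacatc

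Kit held 1 ETS core, at -222 to -217 from the RefSeq gene start, and Wfdc18 held 1 on the opposite strand, at -192 to -187. Lcn2 held 3 on the opposite strand, at -223 to -218, at -124 to -119 and at -21 to -16, and was the sole one of the 3 with a C/EBP match, at -216 to -209, next to the first ETS core without overlapping it. None of the 3 windows held the STAT pattern or the NF-kappaB consensus. Among 32841 promoter windows of the same length, 29.5% held the ETS core, 9.57% the C/EBP pattern, 7.02% the STAT pattern and 7.25% the NF-kappaB consensus. These matches are descriptions of the letters and no binding was measured here.

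The lineage markers of the populations followed their labels, with THC in between. Krt8, a luminal keratin, was at 2386 and 1770 CPM (counts scaled to library size and composition, replicates 1 and 2 in this order throughout) in LC, 1418 and 1226 in TLC, 1005 and 649 in THC, 417 and 317 in BC and 361 and 241 in TBC. Krt14, a basal keratin, was at 2344 and 2216 CPM in BC, 1724 and 1330 in TBC, 1162 and 628 in THC, 676 and 380 in TLC and 34.8 and 10.6 in LC. Krt14 was higher in TLC than in LC by 4.55 log2 units in edgeR's test (adjusted p = 0.0018). The summed level of 10 hormone-sensing genes, which mark the other luminal cell type, was 6577 to 7768 CPM in LC, 2251 to 2480 in THC, 1502 to 1711 in TLC and 323 to 487 in BC and TBC. The sum of 10 macrophage genes reached 210 and 88.9 CPM in THC against 26.4 to 71.4 in the other libraries, the sum of 7 endothelial genes reached 438 and 409 in THC against 34.5 to 324 elsewhere, and that of 6 fibroblast genes reached 837 and 1900 in THC against 102 to 585. The part of these cells, or of hormone-sensing cells, in the levels below was not tested.

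**Figure D1:**
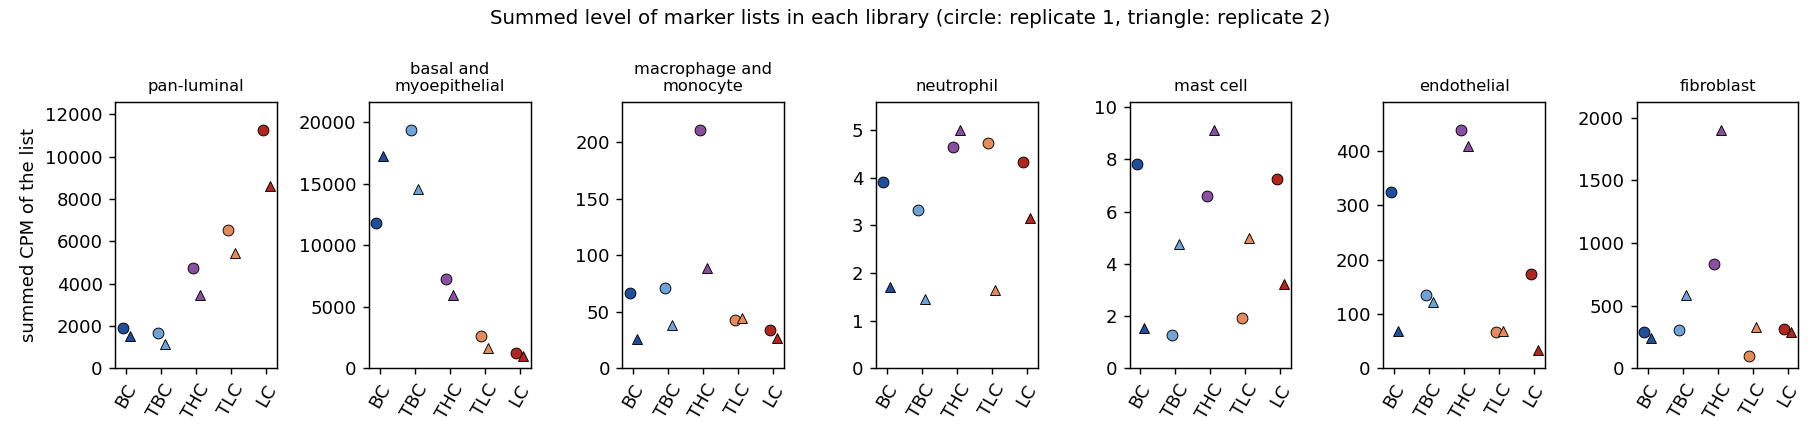
Summed CPM of 7 marker lists (vertical axis, from 0, a separate scale in each panel) in each library, with circles for replicate 1 and triangles for replicate 2. Pan-luminal sums fall from LC through TLC and THC to BC and TBC, basal sums run the other way, and macrophage, endothelial and fibroblast sums are highest in both THC libraries.

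Kit (ENSMUSG00000005672, GRCm38 chromosome 5, 75574916 to 75656722, plus strand) was highest in LC and lowest in TBC. Its level was 616 and 560 CPM in LC, 181 and 306 in TLC, 82.9 and 269 in THC, 97.0 and 55.6 in BC and 21.2 and 31.0 in TBC. Both LC libraries lay above every other library and both TBC libraries below every other library, while TLC overlapped THC and THC overlapped BC. Depending on the comparison, 16.5% to 30.3% of all genes tested lay apart without overlap in a given direction. A lack of overlap, here and below, is thus a description and no test. The 2 THC libraries stood far apart, with an SD of 1.20 on the log2 CPM scale (n = 2). In these bulk libraries, fewer Kit-positive cells and less Kit RNA per cell cannot be told apart, and the same holds for the other 5 genes. Mast cells and melanocytes also express Kit. The 7 mast cell genes summed to 1.26 to 9.11 CPM over all libraries, with Hdc at up to 8.98 CPM in THC, Cpa3 at 0 to 2.74 CPM and Ms4a2 at 0 counts in all 10. The 5 melanocyte genes summed to 3.81 to 10.4 CPM, nearly all of it from Pmel, and Tyr was at 0 to 0.39 CPM. The part of these cells in the Kit levels was not tested.

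**Figure D2:**
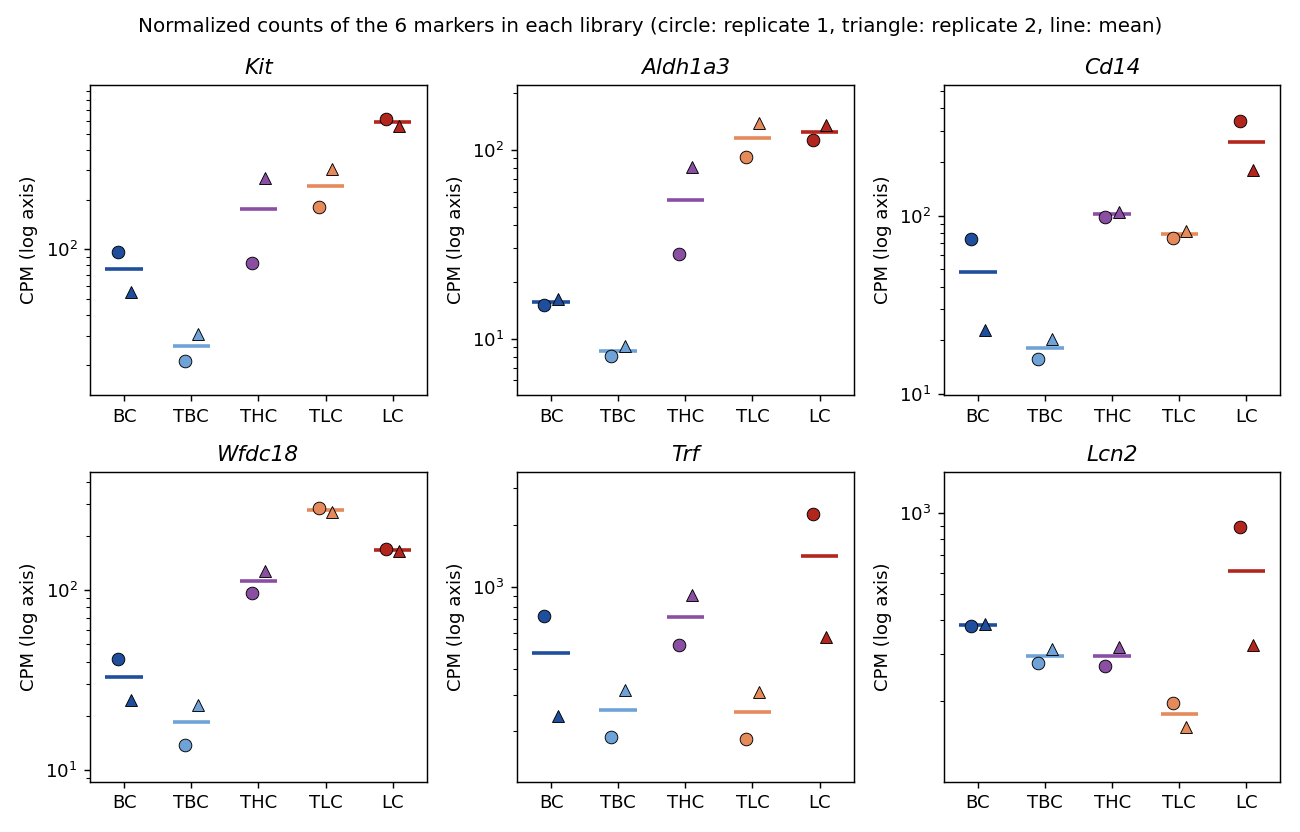
CPM of the 6 genes (vertical log axis) in each library of the 5 populations, with circles for replicate 1, triangles for replicate 2 and a line at the mean. Kit, Aldh1a3, Cd14 and Wfdc18 are lowest in both TBC libraries and above BC in both TLC libraries, whereas Lcn2 is lowest in both TLC libraries and the Trf libraries of one population spread widely.

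Cd14 (ENSMUSG00000051439, GRCm38 chromosome 18, 36725067 to 36726798, minus strand) was highest in LC and lowest in TBC. It was at 339 and 180 CPM in LC, 98.8 and 105 in THC, 75.3 and 82.3 in TLC, 73.9 and 22.9 in BC and 15.8 and 20.5 in TBC. No neighbouring pair in this order overlapped, although BC replicate 1 lay just below TLC replicate 1. In the direction of Cd14, 27.7% of all genes did not overlap in THC vs LC, 21.7% in THC vs TLC and 21.4% in TBC vs BC. Cd14 was called by edgeR in none of these comparisons (adjusted p = 0.10, 0.89 and 0.49). Macrophages carry Cd14 at high level, and the macrophage sum was highest in THC, where the pan-leukocyte gene Ptprc was at 22.1 and 12.1 CPM and Lyz2 at 106 and 28.1 CPM. Cd68, of the same list, had its highest mean in BC, at 21.9 CPM, with 14.5 in LC and 14.3 in THC. In THC vs LC 8 of the 9 macrophage genes tested had positive log2 fold changes and 1 had a negative one. In LC, where Cd14 was highest, the macrophage sum was 34.1 and 26.8 CPM. Ptprc was at 2.60 and 0.79 CPM there, and Csf1r had a mean of 8.64 CPM, against 6.85 in BC and 15.5 in THC.

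Aldh1a3 (ENSMUSG00000015134, GRCm38 chromosome 7, 66390890 to 66427517, minus strand) was the member whose LC and TLC levels came closest. It was at 112 and 135 CPM in LC, 91.7 and 138 in TLC, 27.9 and 80.9 in THC, 15.1 and 16.2 in BC and 8.05 and 9.09 in TBC. LC and TLC overlapped, while TLC, THC, BC and TBC did not overlap one another in that order. Of these neighbouring pairs edgeR called THC vs BC (adjusted p = 0.026) and not THC vs TLC (adjusted p = 0.29) or TBC vs BC (adjusted p = 0.60). As with Kit, THC replicate 2 was well above THC replicate 1, with an SD of 1.08 on the log2 CPM scale (n = 2).

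Wfdc18 (ENSMUSG00000000983, GRCm38 chromosome 11, 83709015 to 83711348, plus strand) was the one gene of the 6 with its highest level in TLC. It was at 284 and 273 CPM in TLC, 169 and 165 in LC, 96.5 and 127 in THC, 41.4 and 24.5 in BC and 13.7 and 22.9 in TBC. The 5 populations did not overlap, although TBC replicate 2 lay just below BC replicate 2. Between neighbours, edgeR called THC vs BC (adjusted p = 0.0067) and not TLC vs LC (adjusted p = 0.15), THC vs LC (adjusted p = 0.23) or TBC vs BC (adjusted p = 0.49). Replicates of TLC and of LC lay close together, with SDs of 0.04 and 0.03 on the log2 CPM scale (n = 2 each).

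Trf (ENSMUSG00000032554, GRCm38 chromosome 9, 103204001 to 103230444, minus strand) varied widely between replicates, most in LC and BC. Its level was 2252 and 574 CPM in LC, 521 and 913 in THC, 723 and 237 in BC, 187 and 317 in TBC and 182 and 310 in TLC. Each population overlapped its neighbour in this order, although both LC and both THC libraries lay above all TBC and TLC libraries. The SD on the log2 CPM scale reached 1.39 in LC and 1.14 in BC (n = 2 each), with replicate 1 the higher in both. Trf shares 2108 bases of exon with Gm20425 on the same strand, and the counts of Gm20425 were 0.992 to 1.10 times those of Trf in every library, so the counts of these overlapping genes cannot be told apart.

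Lcn2 (ENSMUSG00000026822, GRCm38 chromosome 2, 32384633 to 32388252, minus strand) had BC levels within the range of LC and was lowest in TLC. Its level was 894 and 324 CPM in LC, 380 and 387 CPM in BC, 277 and 312 CPM in TBC, 271 and 318 CPM in THC, and finally 197 and 161 CPM in TLC. LC overlapped BC, and TBC overlapped THC, while both TLC libraries lay below every other library. LC replicate 1 alone exceeded all of the BC, TBC and THC libraries. Neutrophils store lipocalin 2, and their 10 marker genes summed to 1.47 to 4.99 CPM over all libraries. Ly6g was at 0 counts in all 10, while S100a8 was at 1.79 to 3.69 CPM in LC against 0.15 to 1.15 in the other libraries. Of the 3 neutrophil genes tested in LC vs BC, 1 was called higher and 2, with negative log2 fold changes, were not called. The part of neutrophils in the Lcn2 levels was not tested.

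Levels were also scaled per kilobase of exon (RPKM), taking all annotated exons of a gene together, to set the genes side by side. The length of the transcripts in use was not known, and Trf counts cannot be told apart from those of Gm20425, so ranks between genes are approximate. On this scale the 6 genes changed rank between populations. Trf led in LC, at 426 ± 357 RPKM (SD, n = 2), ahead of Lcn2 at 232 ± 154, Cd14 at 150 ± 64.9, Wfdc18 at 137 ± 2.71, Kit at 66.0 ± 4.46 and Aldh1a3 at 26.8 ± 3.43. Aldh1a3 was the lowest and Kit the second lowest in every population. Wfdc18 led in TLC, at 228 ± 6.74 RPKM, against 74.2 ± 27.3 for Trf and 68.2 ± 9.69 for Lcn2. Lcn2 led in BC, at 146 ± 1.73 RPKM, with Trf at 145 ± 104, a difference within the spread of Trf.

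Luminal cells differed from basal cells in Kit, Aldh1a3, Cd14 and Wfdc18 and not detectably in Trf and Lcn2. With the quasi-likelihood test of edgeR and p-values adjusted by Benjamini-Hochberg over all genes tested, 4 of the 6 were higher in LC than in BC at an adjusted p under 0.05, in a comparison where 24.0% of all genes were called in either direction. The log2 fold change was 2.95 ± 0.54 (SE) for Kit (adjusted p = 0.0033), a 7.74-fold difference, and 2.98 ± 0.42 for Aldh1a3 (adjusted p = 6e-04). It was 2.44 ± 0.49 for Cd14 (adjusted p = 0.0058) and 2.36 ± 0.30 for Wfdc18 (adjusted p = 2e-04). These 4 were higher in LC within each set of libraries that the title numbers distinguish, by 2.03 to 2.88 log2 units in the first set and 2.74 to 3.33 in the second. Trf had a log2 fold change of 1.56 ± 0.72 (adjusted p = 0.16) and Lcn2 of 0.67 ± 0.37 (adjusted p = 0.24). For Lcn2 the sign differed between the sets, at 1.23 in the first and -0.26 in the second, and without LC replicate 2 it was called higher, at 1.20 (adjusted p = 0.0088). The median log2 fold change of the 6 was 2.40, against -0.04 over all genes tested.

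**Figure D3:**
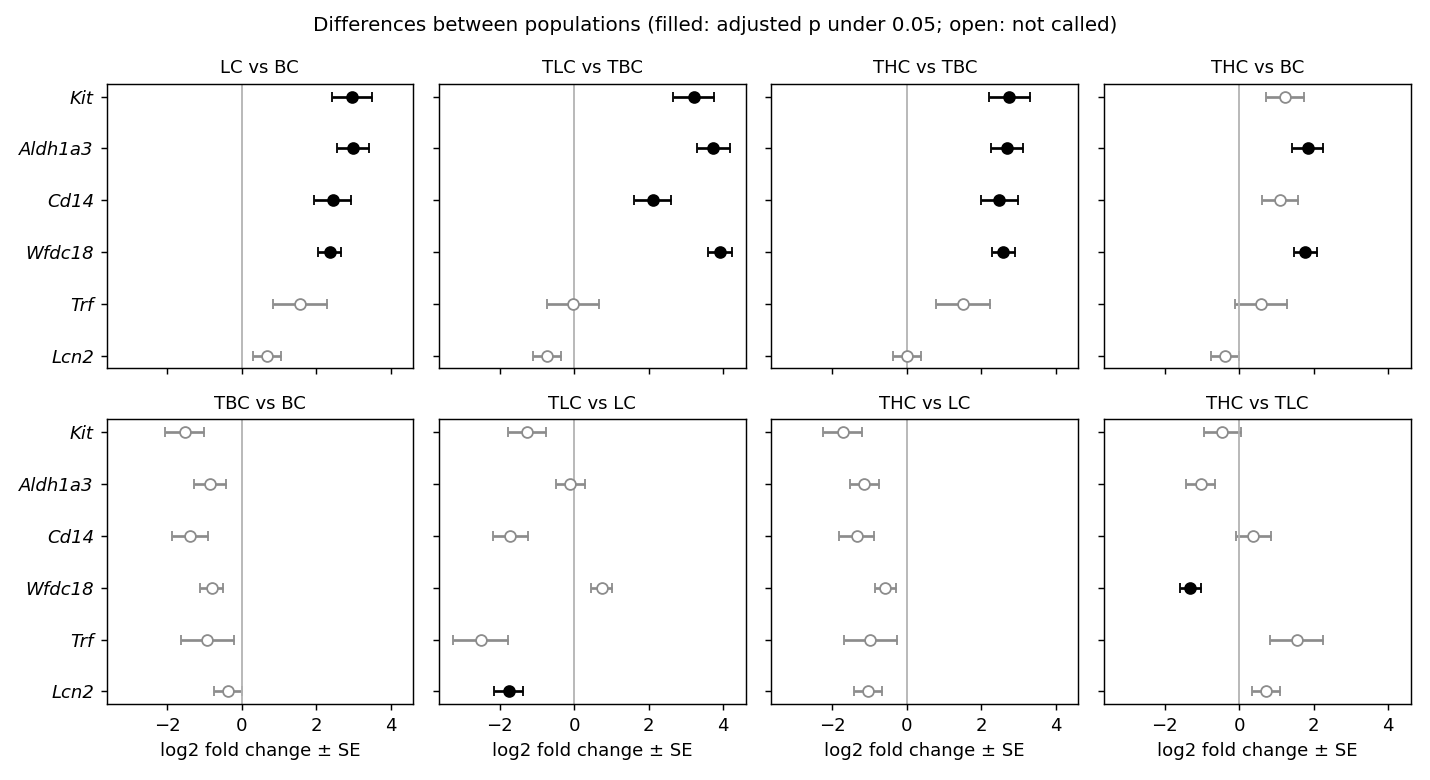
Log2 fold changes (horizontal axis, with SE bars) of the 6 genes in 8 comparisons of populations, filled where the adjusted p was under 0.05 and open where it was not. Filled points on the right are Kit, Aldh1a3, Cd14 and Wfdc18 in LC vs BC, TLC vs TBC and THC vs TBC and Aldh1a3 and Wfdc18 in THC vs BC, and the filled points on the left are Lcn2 in TLC vs LC and Wfdc18 in THC vs TLC.

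Tomato basal cells after luminal ablation showed no called member against BC. All 6 log2 fold changes were negative, from -1.53 ± 0.52 (SE) for Kit (adjusted p = 0.48), -1.39 ± 0.49 for Cd14 (adjusted p = 0.49) and -0.81 ± 0.30 for Wfdc18 (adjusted p = 0.49) to -0.38 ± 0.37 for Lcn2 (adjusted p = 0.81). Of all genes tested by edgeR, 0% were called, 1725 had an unadjusted p under 0.05, and DESeq2 called 198. For the members, 3 had an unadjusted p under 0.05 and DESeq2 called 0 of the 6. Both TBC libraries lay below both BC libraries for 5 of the 6, Trf being the exception, where 21.4% of all genes did so. For 2 of them the difference came mostly from the first libraries, at -2.21 for Cd14 and -1.58 for Wfdc18, against -0.16 and -0.09 between the second.

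Hybrid cells carried more of the RNA of 4 members than Tomato basal cells did. Kit was 6.78-fold higher in THC than in TBC (log2 fold change 2.76 ± 0.54, SE, adjusted p = 0.025), Aldh1a3 6.49-fold (2.70 ± 0.43, adjusted p = 0.0089), Cd14 5.60-fold (2.49 ± 0.50, adjusted p = 0.029) and Wfdc18 6.04-fold (2.59 ± 0.31, adjusted p = 0.0015). That is 4 of 6 where edgeR called 3.72% of all genes. Trf (1.51 ± 0.72, adjusted p = 0.33) and Lcn2 (0.00 ± 0.37, adjusted p = 1) were not called. The call on Wfdc18 held in each fit that left out 1 library. Without either TBC library, Kit (adjusted p = 0.201 and 0.143), Aldh1a3 (0.0915 and 0.0834) and Cd14 (0.208 and 0.174) were no longer called. Without THC replicate 2, Aldh1a3 was at 1.64 and still called. Kit also lost its call without THC replicate 2, where its log2 fold change was 1.61 (adjusted p = 0.113), or without LC replicate 2 (adjusted p = 0.0501), and Cd14 without either library of THC or TLC (adjusted p = 0.0672 to 0.14).

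Against BC, 2 members were higher in THC, where 7.71% of all genes were called. Aldh1a3 was 3.57-fold higher (log2 fold change 1.84 ± 0.41, SE, adjusted p = 0.026) and Wfdc18 3.44-fold (1.78 ± 0.30, adjusted p = 0.0067). Kit (1.23 ± 0.51, adjusted p = 0.18), Cd14 (1.10 ± 0.48, adjusted p = 0.20), Trf (0.58 ± 0.70, adjusted p = 0.67) and Lcn2 (-0.38 ± 0.37, adjusted p = 0.58) were not called. The libraries disagreed in size. Kit differed by -0.23 log2 units between the first libraries and by 2.27 between the second. Without THC replicate 2 the log2 fold change of Aldh1a3 was 0.78 (adjusted p = 0.204) and that of Wfdc18 1.51 (adjusted p = 0.0552). Aldh1a3 was not called without BC replicate 1 (adjusted p = 0.126) or BC replicate 2 (adjusted p = 0.162), nor Wfdc18 without BC replicate 2 (adjusted p = 0.0637). Conversely, Kit was called without THC replicate 1, at 1.83 (adjusted p = 0.036), and Cd14 without BC replicate 1, at 2.14 (adjusted p = 0.016).

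Against LC, the 6 members had negative log2 fold changes in THC and none was called by edgeR, where 12.9% of all genes were. They ran from -1.72 ± 0.51 (SE) for Kit (adjusted p = 0.057) through -1.34 ± 0.47 for Cd14 (adjusted p = 0.10), -1.14 ± 0.39 for Aldh1a3 (adjusted p = 0.088) and -1.05 ± 0.38 for Lcn2 (adjusted p = 0.097) to -0.57 ± 0.29 for Wfdc18 (adjusted p = 0.23). Both THC libraries were below both LC libraries for 5 of the 6, Trf excepted, where 27.7% of all genes were. With the library set of the title numbers as a term, Aldh1a3 was called (-1.24, adjusted p = 0.0141). At an unadjusted p under 0.05 in edgeR there were 4 of the 6, against 5245 of all genes tested. DESeq2 called the same 4, Kit, Aldh1a3, Cd14 and Lcn2, and its count over all genes is not reported here. Without THC replicate 2, Kit (-2.85, adjusted p = 0.00956) and Aldh1a3 (-2.18, adjusted p = 0.00567) were called. Lcn2 was called without LC replicate 2 (-1.64, adjusted p = 0.00425) and Cd14 without either BC library (adjusted p = 0.0112 and 0.0113).

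Tomato luminal cells were above Tomato basal cells in the same 4 of the 6 genes, in a comparison where edgeR called 13.6% of all genes. Wfdc18 was 15.0-fold higher in TLC (log2 fold change 3.91 ± 0.32, SE, adjusted p = 4.9e-05), Aldh1a3 13.3-fold (3.74 ± 0.44, adjusted p = 0.00042), Kit 9.28-fold (3.21 ± 0.55, adjusted p = 0.0041) and Cd14 4.32-fold (2.11 ± 0.50, adjusted p = 0.020). Trf (-0.03 ± 0.70, adjusted p = 0.98) and Lcn2 (-0.72 ± 0.38, adjusted p = 0.26) were not called. Wfdc18 and Aldh1a3 were called whichever library was left out, Kit was not without TBC replicate 1 (adjusted p = 0.0509), and Cd14 was not without either library of TBC or TLC (adjusted p = 0.0799 to 0.146).

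Against LC, 1 of the 6 was called in TLC, where 8.22% of all genes were. Lcn2 was lower, at a log2 fold change of -1.77 ± 0.38 (SE, adjusted p = 0.017). It rested in size on LC replicate 1, without which the value was -0.86 (adjusted p = 0.106), and the call was also lost without TLC replicate 1 (adjusted p = 0.103) or TLC replicate 2 (adjusted p = 0.113). The values of the others were -2.52 ± 0.74 for Trf (adjusted p = 0.075), -1.72 ± 0.48 for Cd14 (adjusted p = 0.059), -1.27 ± 0.51 for Kit (adjusted p = 0.17), -0.11 ± 0.39 for Aldh1a3 (adjusted p = 0.92) and 0.74 ± 0.28 for Wfdc18 (adjusted p = 0.15). Without LC replicate 2, Trf was called lower (-3.18, adjusted p = 0.0421), as were Cd14 without either BC library (-1.72, adjusted p = 0.00494 and 0.00503) and Kit without THC replicate 1 (-1.27, adjusted p = 0.0431).

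Between the Tomato populations THC and TLC, Wfdc18 alone of the 6 was called, lower in THC at a log2 fold change of -1.31 ± 0.29 (SE, adjusted p = 0.049), where 1.61% of all genes were called. That call was lost without any 1 of the 4 THC and TLC libraries (adjusted p = 0.16 to 0.27). Aldh1a3 had a log2 fold change of -1.04 ± 0.39 (adjusted p = 0.29) and was called without THC replicate 2, at -2.09 (adjusted p = 0.0443). Kit (-0.45 ± 0.50, adjusted p = 0.87) and Cd14 (0.37 ± 0.47, adjusted p = 0.89) had no detectable difference, and Trf (1.54 ± 0.72, adjusted p = 0.45) and Lcn2 (0.72 ± 0.38, adjusted p = 0.52) were not called. On the scale of mean log2 CPM, THC lay 66.4% of the way from TBC to TLC for both Aldh1a3 and Wfdc18 and 79.5% for Kit. Cd14 lay at 118%, past TLC by the uncalled difference above. The library sets disagreed on these positions. In the first and second set, Kit was above TBC by 1.96 and 3.11 log2 units in THC and by 3.08 and 3.29 in TLC. For Aldh1a3 these were 1.77 and 3.12 in THC and 3.48 and 3.89 in TLC, and for Wfdc18 2.79 and 2.46 in THC and 4.35 and 3.56 in TLC. Lcn2 lay at 0.539%, level with TBC, and TBC and TLC were too close in Trf to place THC between them.

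Whether the difference of TLC from LC itself differed from that of TBC from BC was tested as (TLC - LC) - (TBC - BC). Both differences hold ablation and tagging together. None of the 6 was called by edgeR, where 0.911% of all genes were. An unadjusted p under 0.05 was reached by 2 of the 6 and by 2101 of all genes tested. DESeq2 called Wfdc18, and its count over all genes is not reported here. Wfdc18 had a difference of 1.55 ± 0.41 log2 units (SE, adjusted p = 0.13) and Lcn2 of -1.39 ± 0.53 (adjusted p = 0.34). Lcn2 was called without LC replicate 2, at -1.93 (adjusted p = 0.0356). Trf (-1.59, adjusted p = 0.68), Aldh1a3 (0.76 ± 0.57, adjusted p = 0.75), Cd14 (-0.33 ± 0.67, adjusted p = 0.93) and Kit (0.26 ± 0.71, adjusted p = 0.95) had wide errors.

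The 14 companion genes of the progenitor and alveolar state were more often higher than lower in LC. In LC vs BC 7 were higher, 1 was lower and 6 were not called, with a median log2 fold change of 2.61. Elf5, the ETS factor that drives alveolar fate, was higher by 3.07 ± 0.47 (SE, adjusted p = 0.0011) and the related ETS factor Ehf by 3.07 ± 0.36 (adjusted p = 0.00012). Ltf, an iron-binding milk protein, was higher by 2.74 ± 0.42 (adjusted p = 7e-04), while Itgb3, an integrin, was lower by 1.51 log2 units (adjusted p = 0.037). In TBC vs BC 0 of 14 were called. In THC vs TBC 4 were higher and 10 were not called: Ehf (2.97, adjusted p = 0.0018), Elf5 (2.88, adjusted p = 0.010), Ltf (2.15, adjusted p = 0.017) and Plet1 (2.53, adjusted p = 0.047).

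Ehf shared the order of Wfdc18, with mean levels of 550 CPM in TLC, 279 in LC, 165 in THC, 33.6 in BC and 21.1 in TBC. It was higher in TLC than in TBC by 4.70 log2 units (adjusted p = 5e-05) and was the sole companion called in THC vs TLC, at -1.73 (adjusted p = 0.031). The milk protein genes did not share 1 order. Csn3, which encodes kappa-casein, was at 1089 and 555 CPM in LC, 406 and 741 in THC, 437 and 414 in TLC, 167 and 41.6 in BC and 65.5 and 111 in TBC, and was higher in LC than in BC (2.99, adjusted p = 0.0093). Csn2, which encodes beta-casein, was at 336 and 481 CPM in THC, 22.3 and 133 in TLC, 39.5 and 81.4 in TBC, 22.8 and 5.74 in LC and 6.86 and 0.51 in BC. It was higher in THC than in BC by 7.07 ± 1.46 log2 units (adjusted p = 0.033) and than in LC by 4.87 ± 1.25 (adjusted p = 0.048). Csn1s1, Lalba and Spp1 also had their highest mean in THC. Csn1s1 was at 558 to 686 CPM there and at 32.5 to 397 in LC. Lalba (50.9 to 86.0 in THC, 23.3 to 61.2 in LC) and Spp1 (381 to 589 in THC, 133 to 725 in LC) overlapped LC. In THC vs LC 6 of the 14 companions had positive log2 fold changes and 8 negative ones. All 6 members were at lower mean level in THC than in LC, and none was called. For 5 of the 6, Trf excepted, the libraries did not overlap, where 27.7% of all genes were lower without overlap. In THC vs BC 5 of 14 companions were higher and 1, Tspan8, was lower (-1.73, adjusted p = 0.027). In TLC vs TBC 5 were higher and 1 lower, in THC vs LC 2 were higher and 1 lower, and in TLC vs LC 1, Ltf, was lower (-2.28, adjusted p = 0.0075).

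**Figure D4:**
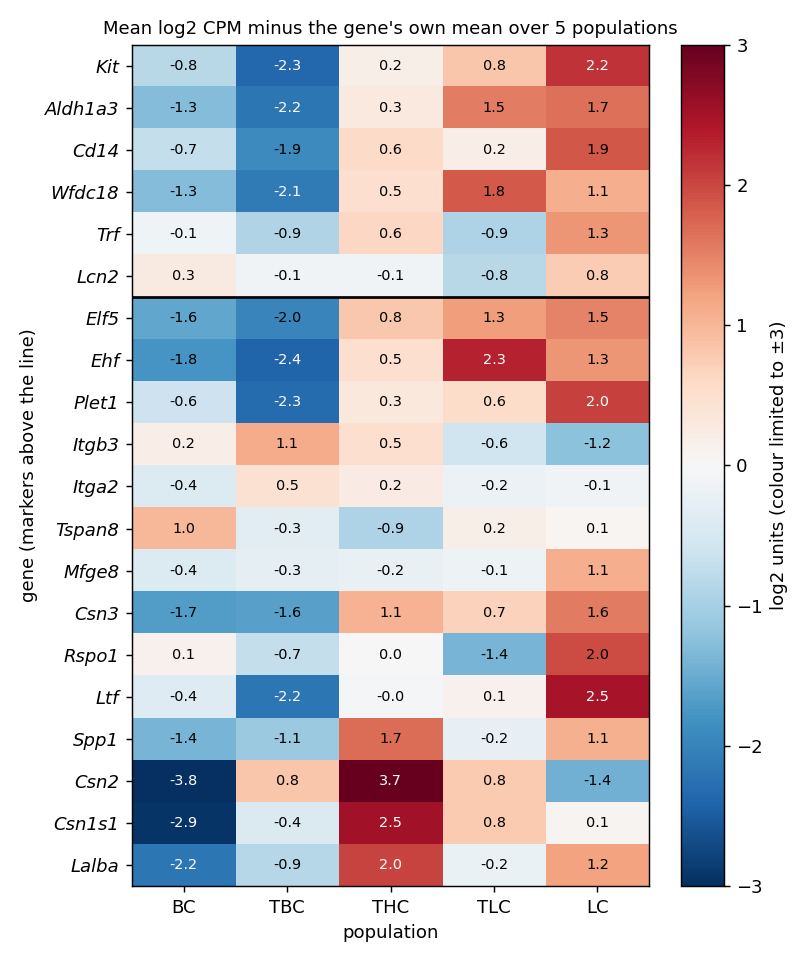
Mean log2 CPM of the 6 markers (above the line) and 14 companion genes (below it) in each population (n = 2 libraries), as the difference from the gene's own mean over the 5 populations, with red above and blue below that mean. Elf5 and Ehf share the low TBC and BC and high LC and TLC values of Kit, Aldh1a3 and Wfdc18, while Csn2, Csn1s1, Lalba and Spp1 are highest in THC.

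The ligand of Kit was highest in the basal populations, where the receptor had its lowest mean levels, although Kit in BC overlapped THC. Kitl, stem cell factor, was at 883 and 1206 CPM in BC, 970 and 951 in TBC, 574 and 583 in THC, 488 and 369 in LC and 333 and 264 in TLC. BC and TBC lay above all THC, LC and TLC libraries. It was lower in LC than in BC by 1.29 ± 0.26 log2 units (SE, adjusted p = 0.0039) and lower in TLC than in TBC (-1.68 ± 0.26, adjusted p = 0.0015), with THC vs TBC at -0.73 (adjusted p = 0.16). Of the 12 genes of Kit signalling, 2 were higher, 5 lower and 5 not called in LC vs BC. The Src-family kinase Lyn was higher (1.42, adjusted p = 0.0011) and its relative Fyn lower (-2.53, adjusted p = 0.00036), as was the inhibitor Socs1 (-2.42, adjusted p = 0.00095). Fyn was higher in TLC than in LC by 2.70 (adjusted p = 0.0014), the single call of this list there, and Lyn was higher in THC than in TBC by 1.38 (adjusted p = 0.011).

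Tlr4 and Ly96, receptor partners of Cd14 in lipopolysaccharide sensing, were higher in LC than in BC. Tlr4, the signalling receptor, was at 59.1 and 48.1 CPM in LC, 32.6 and 29.6 in TLC, 27.1 and 26.2 in THC, 19.8 and 15.2 in BC and 8.53 and 9.82 in TBC. These populations did not overlap. Tlr4 was called in LC vs BC (1.62 ± 0.24, SE, adjusted p = 0.00049), THC vs TBC (1.53 ± 0.25, adjusted p = 0.0073), TLC vs TBC (1.75 ± 0.24, adjusted p = 0.00073) and, lower, THC vs LC (-1.01 ± 0.24, adjusted p = 0.017). Its co-receptor Ly96 was higher in LC than in BC (1.78, adjusted p = 0.031). The related receptor gene Tlr2 went the other way, at 16.1 to 18.9 CPM in LC against 36.3 to 50.3 in BC, and was not called. Of the 13 genes of the list 6 were higher, 0 lower and 7 not called in LC vs BC, the higher ones including the adaptor Tirap (1.28, adjusted p = 0.0025), which was lower in TLC than in LC (-0.89, adjusted p = 0.043). In THC vs BC 0 of 13 were called.

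Retinoid genes other than Aldh1a3 moved in both directions. Of 13, 11 were tested, and in LC vs BC 2 were higher and 2 lower, with a median log2 fold change of -0.09. Dhrs3, a retinoic acid target that reduces retinaldehyde, was higher in LC than in BC (1.18, adjusted p = 0.0097) and lower in TLC than in LC (-1.20, adjusted p = 0.023). Cyp26b1, which degrades retinoic acid, was lower in LC than in BC (-2.06, adjusted p = 0.0086). In TLC vs LC 3 of the 11 were higher and 1 was lower, with a median of 1.46 and 9 of 11 positive, while Aldh1a3 was not called. Among the higher ones, the binding protein gene Crabp1 was at 9.65 and 14.8 CPM in TLC and 0 and 0.861 in LC (4.64, adjusted p = 0.0093), and Aldh1a1, another retinaldehyde dehydrogenase gene, was below 1 CPM in both LC libraries and higher in TLC (2.91, adjusted p = 0.021). Crabp2, which delivers retinoic acid to the nucleus, was higher in LC vs BC (1.54, adjusted p = 0.016), in THC vs TBC (1.84, adjusted p = 0.034) and in TLC vs TBC (2.47, adjusted p = 0.0022). The retinoic acid receptor gene Rarb was not called in TLC vs LC (1.51, adjusted p = 0.051).

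The relatives of Wfdc18 with a whey acidic protein domain went separate ways, 4 of 9 having enough counts to be tested. Wfdc2 was at 255 and 352 CPM in LC, 81.2 and 117 in TLC, 105 and 65.1 in THC, 19.0 and 29.2 in BC and 18.9 and 17.6 in TBC. Unlike Wfdc18, it was lower in TLC than in LC (-1.61 ± 0.30, SE, adjusted p = 0.0080). Slpi, a secreted protease inhibitor, was at 247 and 178 CPM in BC, 152 and 105 in TBC, 130 and 110 in TLC, 122 and 46.8 in THC and 7.80 and 6.68 in LC. LC stood alone at the low end. Slpi was lower in LC than in BC by 4.88 ± 0.46 (adjusted p = 4.4e-05) and higher in TLC than in LC by 4.05 ± 0.44 (adjusted p = 0.00084), and it was called in the test of the luminal against the basal side, at 4.78 ± 0.58 (adjusted p = 0.0069). Wfdc12 was at 13.0 and 15.2 CPM in TLC and 3.87 and 11.2 in THC against 0 to 1.30 in the other libraries, and was called higher in TLC vs LC (4.01, adjusted p = 0.0063).

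Iron genes around Trf and Lcn2 were mostly not called. Of 14, 1 was higher and 1 lower in LC vs BC. Ltf, the close relative of Trf, was at 1923 and 1538 CPM in LC against 65.8 to 467 in the other libraries, without the spread that Trf showed in LC. Tfrc, the transferrin receptor, and Slc22a17, a receptor of lipocalin 2, were called in 0 of the 9 comparisons, with LC vs BC at 0.07 ± 0.33 (SE, adjusted p = 0.91) and 0.32 ± 0.40 (adjusted p = 0.63). Of the Stat3 and acute phase list, to which Lcn2 is related, 12 of 14 were tested, and in TLC vs LC 4 were lower, as Lcn2 was, and 0 higher. They were Hp, haptoglobin (-3.50 ± 0.66, adjusted p = 0.014), Igfbp5 (-2.27 ± 0.40, adjusted p = 0.0062), Il6ra (-2.36 ± 0.38, adjusted p = 0.0042) and Lrg1 (-1.66 ± 0.41, adjusted p = 0.030). In LC vs BC 4 of that list were higher and 3 lower, including Socs3 (-2.11, adjusted p = 0.0032).

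Over the log2 CPM of the 10 libraries, Kit, Aldh1a3, Cd14 and Wfdc18 had higher correlations with one another than with Lcn2. This is a description with no test, since the libraries share their 5 populations. Pearson's r was 0.95 between Kit and Aldh1a3, 0.95 between Aldh1a3 and Wfdc18, 0.92 between Kit and Cd14, 0.87 between Kit and Wfdc18, 0.82 between Aldh1a3 and Cd14 and 0.80 between Cd14 and Wfdc18. Trf was closest to Cd14 (0.78) and Lcn2 (0.74). Lcn2 had r of 0.36 with Cd14, 0.21 with Kit, -0.04 with Aldh1a3 and -0.17 with Wfdc18. Among 12132 genes with at least 10 CPM in some population, the most alike to Kit were D330041H03Rik, Nxf7 and Cadps2 (0.98 each), to Aldh1a3 the tight junction gene Tjp3 (0.996), Cytip (0.987) and Cobl (0.985), and to Cd14 Clic6 (0.985), the sodium pump subunit Atp1b1 (0.984) and Ncald (0.979). Those most alike to Wfdc18 were Ehf (0.994), Gm17089 (0.991) and Slc5a9 (0.984). Apart from the overlapping Gm20425, Trf had 9530053A07Rik (0.951) and Itpk1 (0.949), and Lcn2 had Arhgef6 (0.914), Ids (0.906) and Slc41a2 (0.902), the lowest likeness of the 6.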

How the data were processed

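Bulk RNA sequencing of mouse mammary cells sorted by flow cytometry was deposited by the authors as counts per Ensembl gene for each of 10 libraries. Per the labels' protocols, RNA came from the RNeasy Micro kit and libraries from the Ovation Solo system, sequenced on a NovaSeq. STAR, HTSeq and GRCm38 (mm10) are named per the submitters' processing notes. Their versions, the annotation release and how strand was handled were not given in the sources used here. HTSeq summary entries were removed: reads without a feature were 12.6% to 30.8% per library and non-unique reads 14.6% to 43.0%, the highest in THC replicate 1.

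From the counts, CPM (TMM factors, prior count 2 for log2 CPM) and RPKM over GENCODE M21 exon lengths were computed, with 49412 of 49671 identifiers matched. All 10 libraries entered 1 model with a coefficient per population (edgeR 4.0.16, R 4.3.3, quasi-likelihood F-test, robust, filterByExpr, 5 residual degrees of freedom). Calls needed p-values under 0.05 after Benjamini-Hochberg adjustment over 19757 genes. The SE is the log2 fold change divided by the square root of its F statistic. Replicates were numbered in record order. These numbers coincide with the library sets of the title numbers, within which differences were also taken, but no label says that libraries of a set share animals. Replicate counts varied by more than counting error (chi-square per degree of freedom from 19.5 up to 34.4). In THC replicate 1, the shallowest, 3 counts equal 1.16 CPM, and such floors cover counting error only.

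The text names the 6 genes, their direct partners, up to 4 called genes per related list and comparison by smallest adjusted p, the 3 most alike genes by Pearson's r, and keratin anchors. Plet1, Itgb3, Csn2, Csn1s1, Lalba and Spp1 and a few genes of other cells are members of those lists. The genes and lists were chosen with earlier results of these data known, so list counts are no independent support. The scripts were tested on simulated data. Alternatives were RLE factors, DESeq2 1.42.0, limma-voom (limma 3.58.1), no filter, 5 CPM in 2 libraries, the library set as a term, and each library left out. Some called genes of the lists are counted but not reported by name here.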

Additional observations from a re-analysis of the deposited data

How the results depend on the processing

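Over 864 recomputed member results (54 differences under 16 alternatives), 794 kept their call or lack of one, 40 gained a call, 30 lost one and 0 reversed a called direction. The 794 include uncalled results that changed sign. Lcn2 in LC vs BC, for example, was at 0.67 in the analysis reported and -0.24 at the lowest alternative. The 4 calls in LC vs BC, Wfdc18 in THC vs TBC, and Aldh1a3 and Wfdc18 in TLC vs TBC held throughout. The number of members called changed as follows. With no low-count filter it was 2 in TBC vs BC (0 in the analysis reported), 4 in THC vs BC (2), 4 in TLC vs LC (1) and 4 in THC vs LC (0). That fit also gave 5 in TLC vs TBC (4), 2 in THC vs TLC (1) and 2 in the lineage difference (0). Over all genes it gave the most calls of any alternative in TBC vs BC (398), THC vs TBC (1839) and TLC vs LC (2561). The same held for THC vs TLC (1143) and the lineage difference (725). DESeq2 called 3 in TLC vs LC, 4 in THC vs LC and 1 in the lineage difference. The 5 CPM filter gave 2 in TLC vs LC, 1 in THC vs LC and 0 in THC vs TLC. In THC vs LC limma-voom and the library set term gave 1 each, the library set term with 3743 of all genes called (2551). Counts over all genes in these comparisons are not reported here for DESeq2, limma-voom and the 5 CPM filter. The same holds for the fit with no low-count filter in THC vs BC, THC vs LC and TLC vs TBC. In those cases the member counts cannot be set against the share of all genes. The cause of these changes in the number of members called was not tested. Leaving out 1 library gave 4 to 5 in LC vs BC (4), 0 to 3 in THC vs BC, 1 to 4 in THC vs TBC, 0 to 2 in TLC vs LC, 2 to 4 in TLC vs TBC, 0 to 2 in THC vs LC, 0 to 1 in THC vs TLC and 0 to 1 in the lineage difference. A population left with 1 library was taken to vary like the others. The number of all genes called ranged from 3131 to 5828 in LC vs BC (4742 reported), 0 to 398 in TBC vs BC (0), 280 to 2800 in THC vs BC (1524), 177 to 1839 in THC vs TBC (734), 494 to 2561 in TLC vs LC (1625), 1484 to 3561 in TLC vs TBC (2689), 1191 to 3743 in THC vs LC (2551), 0 to 1143 in THC vs TLC (318) and 45 to 725 in the lineage difference (180). With 2 libraries a population and 5 residual degrees of freedom, differences such as that of Trf between LC and BC (SD 1.39 log2 CPM in LC) could not be resolved. The library set as a term, the nearest to a block that the titles allow, changed 1 member call, that of Aldh1a3 in THC vs LC.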
